A study of Mus musculus with 10 samples.

Results

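The proteasome genes were followed here as 39 genes, chosen by their symbols: the 7 alpha-ring and 10 beta-ring subunits of the 20S core (Psma1 to Psma7 and Psmb1 to Psmb10), 6 ATPases and 11 other subunits of the 19S cap, the activator genes Psme1 to Psme4 and the maturation protein gene Pomp. All 39 had a row among the 29700 gene rows of the count table, and 38 had enough reads to be tested. RNA was sequenced from peritoneal macrophages of C57BL/6 mice aged 8 weeks, collected after thioglycollate had drawn the cells into the peritoneum, in 5 control and 5 ox-LDL libraries. The control cells were labelled untreated. The ox-LDL cells were first primed with 100 ng/ml LPS, the bacterial endotoxin, and then kept for 16 h with 100 μg/ml of oxidized low-density lipoprotein (ox-LDL). By the labels the effects of these agents cannot be told apart, although another reading of the experiment gives LPS to the control cells as well. The design names 5 biological replicates for each group. In bulk RNA, fewer cells with a transcript and less of it per cell cannot be told apart.

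The proteasome is the protease that degrades proteins tagged with ubiquitin. Its 20S core is a barrel of stacked alpha and beta rings, in which the beta subunits encoded by Psmb5, Psmb6 and Psmb7 cut proteins; interferon induces 3 other catalytic subunits, Psmb8, Psmb9 and Psmb10, which replace them in newly built cores to form the immunoproteasome. The 19S cap binds and unfolds tagged proteins, and the PA28 activator encoded by Psme1 and Psme2 opens the core without ubiquitin. In macrophages, which present antigen, the immunoproteasome is known for making peptides that fit MHC class I molecules.

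The libraries held between 19257131 and 20687289 estimated counts. Levels are given as CPM, counts scaled between libraries by TMM, or per gene length as FPKM where genes are compared with each other. The libraries were not alike in one respect that touches these genes, most of which are short. In ox-LDL replicate 2, and less so in control replicates 1 and 4, short genes stood above their mean over the libraries (Spearman correlation with gene length across 12654 genes, which are not independent: -0.54, -0.43 and -0.35), while in the other 7 libraries it was between 0.11 and 0.42. The TMM factor of ox-LDL replicate 2 was 0.593, against 0.837 to 1.19 in the other 9 libraries. The counts of proteasome genes that passed are therefore given also with each library's trend on gene length removed, and without ox-LDL replicate 2. The macrophage markers Adgre1, Csf1r, Cd68 and Lyz2 were present in all libraries. The summed level of 7 macrophage markers was 22622 to 41936 CPM in control and 12756 to 27770 CPM in ox-LDL libraries, without TMM scaling. Most of that sum was Lyz2, at 20202 to 40137 CPM in control and 9209 to 25959 CPM in ox-LDL libraries. Adgre1, the only one of the 7 whose groups did not overlap, was higher, at 175 to 338 and 402 to 1923 CPM. Markers of other cells were low. The summed level of 7 neutrophil markers was 7.31 to 15.7 CPM in control and 13.2 to 89.5 CPM in ox-LDL libraries. Most of it was S100a8, and Mpo and Elane were at or below 3 counts everywhere. Camp was higher without overlap, at 0 to 0.05 CPM in control and 0.16 to 0.79 CPM in ox-LDL libraries. Ltf was lower without overlap, at 0.39 to 1.54 CPM in control and 0 to 0.10 CPM in ox-LDL libraries. The summed level of 7 mesothelial and stromal markers was 14.6 to 45.4 and 59.5 to 127 CPM, most of it Dcn. The mesothelial marker Upk3b was lower, at 0.29 to 0.84 CPM in control and 0 to 0.26 CPM in ox-LDL libraries. The part of these cells in the results below was not tested. The summed markers of B cells, of T and NK cells, of dendritic cells and of eosinophils and mast cells were below 10 CPM in every library.

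A larger share of the proteasome genes than of all genes was upregulated, and 0 were downregulated (5.35% of all genes). With edgeR's quasi-likelihood test and an adjusted p below 0.01, 11 of the 38 genes tested were higher in ox-LDL-treated macrophages, where 9.40% of the 12654 genes tested were higher: Psmb9, Psmb10, Psmc2, Psmc4, Psmd1, Psmd4, Psmd7, Psmd11, Psmd14, Psme1 and Psme2. At an unadjusted p below 0.05, 32 were higher (23.0% of all genes) and 0 lower, and no proteasome gene was lower with DESeq2 or limma-voom either. All 38 log2 fold changes were positive, as were 56.2% of those of all genes, with a median of 0.96 against 0.097 over all genes; Psmd6 turned negative with library size, upper-quartile or FPKM scaling and without ox-LDL replicate 2. In 20 of the 38 genes every ox-LDL library lay above every control library, which was so for 11.6% of all genes tested; the reverse held for 0 of the 38 and for 9.11% of all. The groups were apart in 29 with the length trend removed (14.4% of all genes). At an adjusted p below 0.05, 24 were higher (16.2% of all genes), and 3, Psmb9, Psmd11 and Psme2, also had a log2 fold change above 2 at an adjusted p below 0.01 (4.78% of all genes). With the length trend removed 28 were higher (13.0% of all genes). Leaving out ox-LDL replicate 2 gave 16 (13.5%), and taking the replicate number as a block gave 3 (6.99%). The count was 6, 7, 4 and 7 without control replicates 2, 3, 4 and 5, where 6.65%, 7.16%, 6.39% and 8.16% of all genes were higher. By role, both interferon-inducible catalytic subunits tested and both PA28 genes passed, 7 of the 17 genes of the 19S cap, and 0 of the 14 constitutive genes of the 20S core (13 with the length trend removed, 3 without ox-LDL replicate 2).

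**Figure D1:**
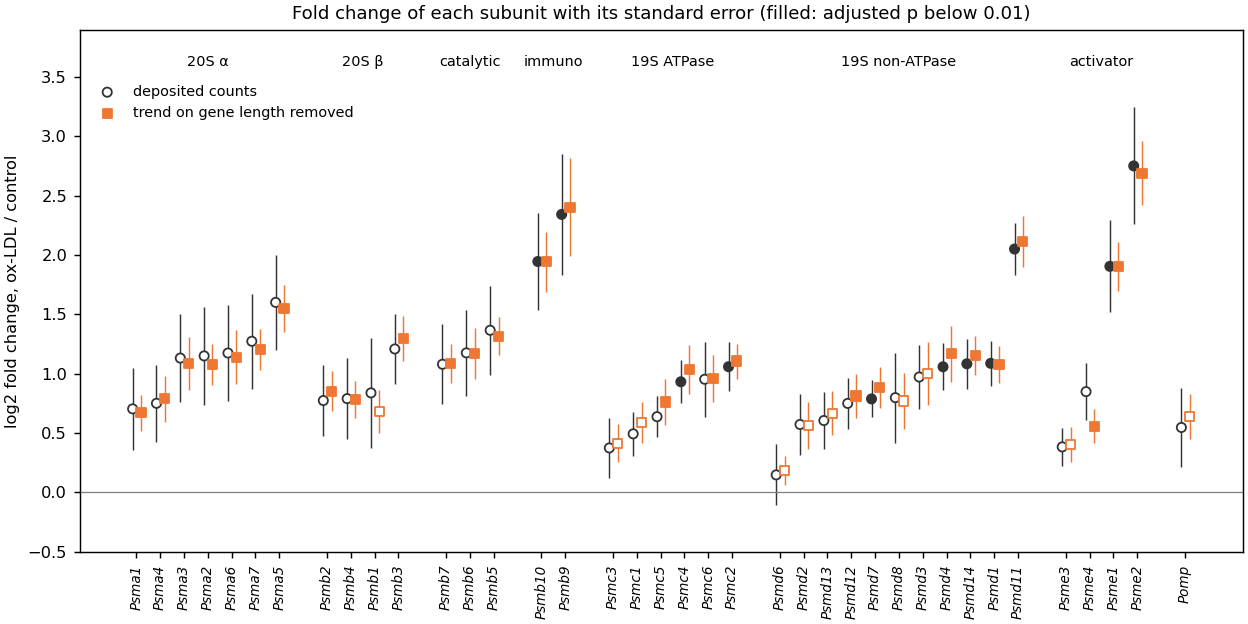
Log2 fold change of ox-LDL over control (vertical axis) for each of the 38 genes tested, grouped by role and ordered by size, with bars for the standard error. Circles are the fit to the deposited counts and squares the fit with each library's trend on gene length removed, filled where the adjusted p was below 0.01; 11 circles and 28 squares are filled, and the 14 constitutive 20S genes change from 0 to 13 filled symbols with shorter error bars.

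Among the interferon-inducible catalytic subunits, Psmb9 (chr17:34318933-34324709 in mm9, minus strand) lies head to head with the peptide transporter gene Tap1, whose annotated start overlaps it by 212 bases. Psmb9 was measured at 29.2, 14.4, 12.0, 17.3 and 21.9 CPM in control replicates 1 to 5 and at 40.8, 187, 41.3, 40.3 and 171 CPM in ox-LDL replicates 1 to 5. The groups did not overlap, and within the ox-LDL group replicates 2 and 5 stood far above the other 3. The log2 fold change was 2.34 ± 0.51 (SE), with an adjusted p of 0.00536. The call was lost without control replicates 2, 3, 4 or 5 or ox-LDL replicate 5 (adjusted p = 0.0175, 0.0165, 0.0174, 0.0123 and 0.0176). It was also lost with the replicate number as a block (edgeR adjusted p = 0.0151), with no filter beyond 1 count (0.0309) and with limma on unfiltered FPKM (0.0128). In all, the call was lost in 9 of 27 alternatives. It was kept without ox-LDL replicate 2, with a log2 fold change of 1.91 (adjusted p = 0.00791). Psmb9 was at 13.1 to 24.4 CPM in control and 55.6 to 220 CPM in ox-LDL libraries once the length trend was removed. Strandedness of the counting is not given in the sources used here, so reads in the overlap with Tap1 cannot be told apart; Tap1 itself rose from 15.4 ± 7.99 to 260 ± 143 CPM (SD, n = 5). In RefSeq the starts of this divergent pair lie further apart, and the 225 bases between them (GRCm38.p6, chr17:34187331-34187555, minus strand) are shown because both genes are read outward from this stretch, with a GC box (GGGCGG) in capitals:
Psmb9: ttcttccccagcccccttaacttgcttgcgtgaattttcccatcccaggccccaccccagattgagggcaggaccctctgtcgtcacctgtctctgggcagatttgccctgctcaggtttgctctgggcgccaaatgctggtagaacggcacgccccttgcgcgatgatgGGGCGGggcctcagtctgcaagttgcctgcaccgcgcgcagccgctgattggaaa

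Psmb10, the counterpart of Psmb7, lies at chr8:108459628-108462292 in mm9. Its control levels were 117, 68.1, 68.9, 99.6 and 71.2 CPM and its ox-LDL levels 165, 670, 187, 194 and 419 CPM. All ox-LDL libraries were above all control libraries, again with replicates 2 and 5 highest. The log2 fold change was 1.94 ± 0.40 (SE; adjusted p = 0.00408 with edgeR). It was 1.46 without ox-LDL replicate 2 (adjusted p = 0.00233), and the call was lost without control replicates 2, 3, 4 or 5 or ox-LDL replicate 5 (adjusted p = 0.0144, 0.0135, 0.0112, 0.0122 and 0.0140). The call was also lost with the replicate number as a block (edgeR adjusted p = 0.0208).

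Psmb8, the third of these subunits, was nearly without reads. Its row held 19.3, 0, 3.71, 0 and 6.44 estimated counts in the control libraries and 0, 0, 23.3, 0 and 3.34 in the ox-LDL libraries, and it was not tested. A count of 0 allows up to 3 counts in a library. The gene lies at chr17:34334666-34338399 in mm9, 495 bases beyond the end of Tap1, and the annotation places the gene Gm20496 on the opposite strand over 2140 of its bases. Its transcript aligned well to its own locus alone in the genome, and whether its reads were counted under another row was not tested. No direction is given for Psmb8.

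**Figure D2:**
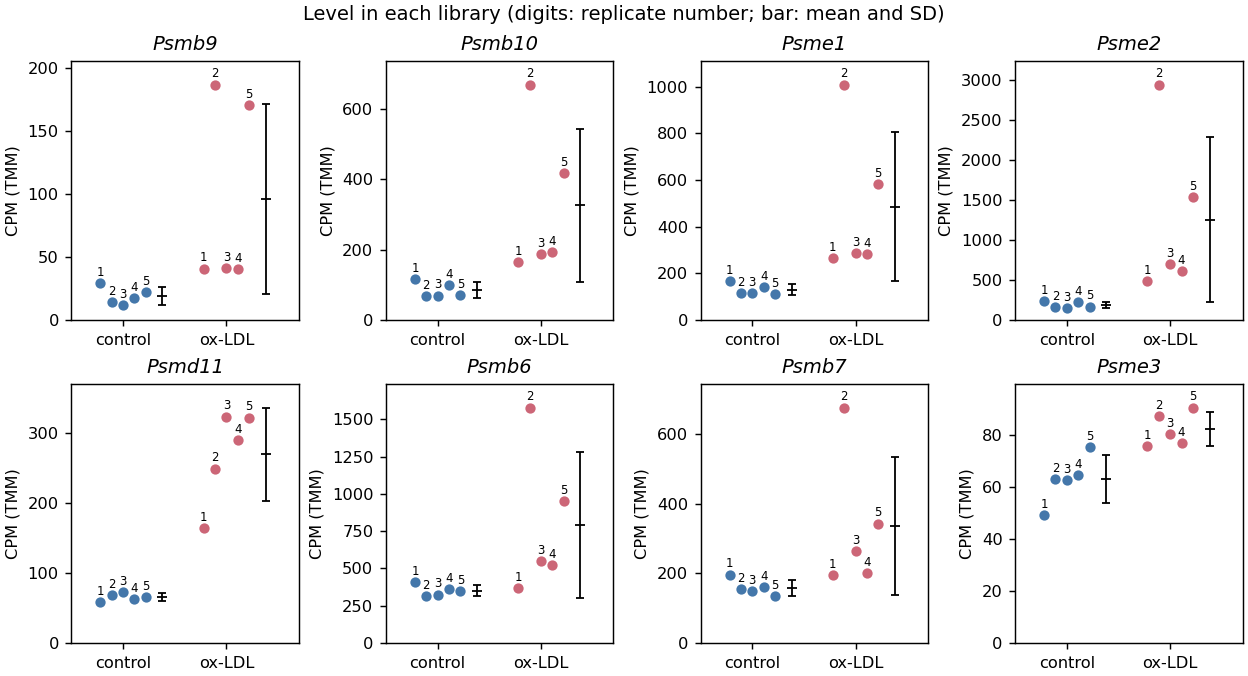
Level of 8 proteasome genes in each library (CPM after TMM scaling, linear axes from 0), with digits for the replicate number and a bar for the mean and SD of 5 libraries per group. In Psmb9, Psmb10, Psme1, Psme2, Psmd11 and, narrowly, Psme3 the ox-LDL libraries lie above all control libraries. Ox-LDL replicate 2 is highest in 6 of the 8 panels. It is not highest in Psmd11, where it is at 249 CPM below replicates 3, 4 and 5, nor in Psme3.

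To compare each immunosubunit with the subunit it replaces, the ratio of their FPKM values was taken within each library, where scaling between libraries cancels. Psmb9 made up 4.65% to 8.72% of the summed FPKM of Psmb9 and Psmb6 in control libraries and 9.04% to 19.2% in ox-LDL libraries. The log2 ratio rose from -3.88 ± 0.39 to -2.83 ± 0.52 (SD, n = 5), a 2.07-fold higher ratio (two-sided exact permutation test over 252 arrangements, p = 0.00794, also after adjustment over 2 ratios, the smallest these arrangements can give). Psmb10 made up 24.1% to 31.1% of its pair with Psmb7 in control and 33.9% to 47.0% in ox-LDL libraries. Its log2 ratio rose from -1.40 ± 0.22 to -0.57 ± 0.29 (SD, n = 5), 1.78-fold (exact permutation test, p = 0.00794, adjusted over 2 ratios). In both pairs the immunosubunit stayed below its constitutive counterpart in every library, and the groups did not overlap. With each library left out in turn the log2 differences were 0.86 to 1.17 and 0.73 to 0.93, where the exact test cannot give a p below 0.0159. Removing the length trend gave 1.09 and 0.80 (exact permutation test, adjusted p = 0.0159 for both). The ratio of Psmb8 to Psmb5 could not be computed, since Psmb8 was at 0 in 5 libraries.

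**Figure D3:**
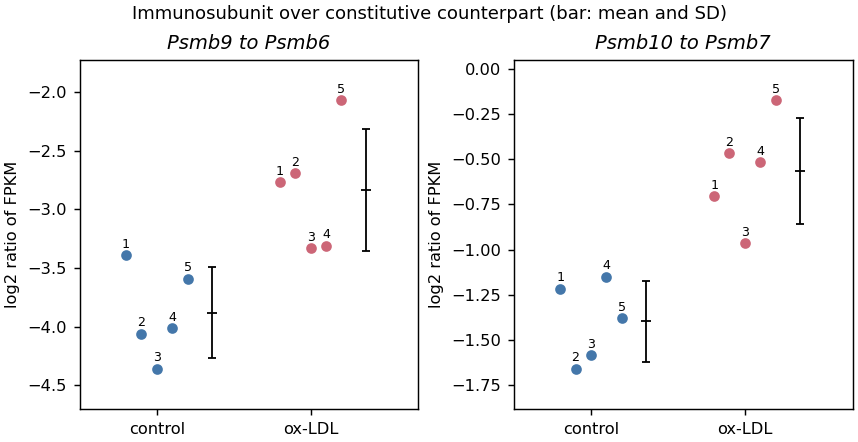
Log2 ratio of FPKM (vertical axes) of Psmb9 to Psmb6 and of Psmb10 to Psmb7 in each library, with digits for the replicate number and bars for the mean and SD of 5 libraries. In both panels all ox-LDL libraries lie above all control libraries, and the ratio of ox-LDL replicate 2 lies within the range of the other ox-LDL replicates.

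Psme1 and Psme2, which encode the interferon-inducible PA28 alpha and beta subunits, rose; Psme3, which encodes nuclear PA28 gamma, and Psme4, which encodes the large activator PA200, did not pass. Whether the fold changes of these genes differed from each other was not tested. Psme2 had the largest fold change of all 38 genes. Its control levels were 237, 155, 151, 223 and 165 CPM and its ox-LDL levels 483, 2938, 694, 611 and 1531 CPM, without overlap. The log2 fold change was 2.75 ± 0.49 (SE), 6.72-fold, with an adjusted p of 0.00167. Without ox-LDL replicate 2, the highest library, it was 2.12 (adjusted p = 0.000461). With the replicate number as a block it was 2.41 and did not pass (edgeR adjusted p = 0.0105). A copy of the Psme2 transcript without introns, 99.4% identical over 82.5% of its length, lies on chromosome 11, so its reads may be split between loci and its level is uncertain.

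Psme1 (chr14:56196960-56200366 in mm9) lies close to Psme2 on chromosome 14. It was measured at 167, 116, 113, 141 and 112 CPM in control and at 266, 1009, 287, 283 and 583 CPM in ox-LDL libraries, and the groups did not overlap. The log2 fold change was 1.90 ± 0.39 (SE; adjusted p = 0.00355). It was 1.41 without ox-LDL replicate 2 (adjusted p = 0.00124), and the call was lost without control replicates 2, 3, 4 or 5 or ox-LDL replicate 5 (adjusted p = 0.0125, 0.0120, 0.0111, 0.0107 and 0.0120). The call was also lost with the replicate number as a block (edgeR adjusted p = 0.0166). With the length trend removed the control libraries drew together to 111 to 124 CPM, against 341 to 724 CPM in ox-LDL libraries. Psme1 also has a copy without introns, 90.6% identical over 82.0% of the transcript, on chromosome 1.

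The alpha and beta genes of PA28 did not rise in step: the FPKM of Psme2 was 1.46 to 1.73 times that of Psme1 in control and 1.99 to 3.20 times in ox-LDL libraries. This ratio was described after its values were seen and carries no test. Psme3 was measured at 49.2, 63.1, 62.6, 64.6 and 75.2 CPM in control and at 75.7, 87.3, 80.1, 76.8 and 90.4 CPM in ox-LDL libraries, which all lie above the highest control library, with a log2 fold change of 0.38 ± 0.16 (SE; adjusted p = 0.0994 with edgeR). With the length trend removed its groups overlapped, at 50.1 to 73.2 CPM in control and 70.1 to 101 CPM in ox-LDL libraries. Psme4, the longest of the genes at 6130 bases, was at 36.2, 52.5, 50.8, 32.7 and 47.3 CPM in control and at 92.5, 41.6, 92.7, 84.3 and 84.0 CPM in ox-LDL libraries, where replicate 2 lay within the control range and the other 4 above it. Its log2 fold change was 0.85 ± 0.24 (SE; adjusted p = 0.0214). When that library was left out it was 0.97 and passed (adjusted p = 0.000737). It also passed with the length trend removed, at 0.56 (adjusted p = 0.00897).

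Promoters of 33 of the 39 genes were found in the RefSeq table, and the 300 bases from 250 before to 50 after each start were searched on both strands for short motifs. The interferon-stimulated response element, written GAAANNGAAA, was present in 3 of the 33 (9.09%), against 3.99% of 27025 genes with a promoter. They were Psmb3, Psmd4 and Psme1, and 30 bases around each match are shown because only Psme1 of the 4 interferon-inducible genes that rose held these letters; the match is in capitals and reads as the reverse complement (GRCm38.p6, chr14:55578493-55578522, chr3:95042675-95042704 and chr11:97703261-97703290):
Psme1: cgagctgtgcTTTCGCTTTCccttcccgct
Psmd4: ataaccaaccTTTCCATTTCtgtggcgcct
Psmb3: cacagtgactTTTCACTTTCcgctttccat
The match began 10 bases into the transcript of Psme1, and 80 and 163 bases before the starts of Psmd4 and Psmb3. Of these genes Psme1 and Psmd4 passed the test and Psmb3 did not. The gamma-activated site TTCNNNGAA was in 2 of 33 promoters, Psmb8 and Psmd2 (6.06%, against 9.55% of all), the antioxidant response element TGACNNNGC in 5 (15.2%, against 14.0%), the kappaB consensus in 6 (18.2%, against 9.55%) and the GC box GGGCGG, which can lie inside other GC-rich motifs, in 20 (60.6%, against 38.2%). Among the 9618 tested genes with a promoter the shares were 4.01% for the interferon-stimulated response element, 8.36% for the gamma-activated site, 17.2% for the antioxidant response element, 12.2% for kappaB and 67.6% for the GC box. The members lay below the tested genes for the gamma-activated site, the antioxidant response element and the GC box. These matches are letters in a window and say nothing of binding.

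The constitutive catalytic genes Psmb5, Psmb6 and Psmb7 had fold changes close to each other, and none passed. Psmb5, for the chymotrypsin-like subunit, was at 154, 123, 126, 129 and 112 CPM in control and at 176, 752, 221, 213 and 297 CPM in ox-LDL libraries. Psmb6 was at 406, 317, 324, 363 and 346 CPM and at 365, 1578, 549, 520 and 949 CPM. Psmb7 was at 197, 156, 149, 160 and 134 CPM and at 195, 677, 264, 202 and 343 CPM. The groups did not overlap in Psmb5, and 1 ox-LDL library each of Psmb6 and Psmb7 fell within the control range; ox-LDL replicate 2 was far above the others in all 3. The log2 fold changes were 1.36 ± 0.37, 1.17 ± 0.37 and 1.08 ± 0.34 (SE), with adjusted p values of 0.0186, 0.0330 and 0.0330 from edgeR. Without ox-LDL replicate 2 they were 0.78, 0.72 and 0.62, and that of Psmb5 passed (adjusted p = 0.00512). With the length trend removed the ox-LDL levels of Psmb5 narrowed to 235, 299, 293, 300 and 378 CPM against 99.2 to 138 CPM in control, and all 3 genes passed (adjusted p = 8.49e-05, 0.00137 and 0.000409). Copies without introns exist for Psmb5 (99.0% identical) and Psmb6 (92.2%), so their reads may be split.

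The other 11 genes of the 20S barrel showed the same picture. All 7 alpha-ring genes and the 4 non-catalytic beta-ring genes had positive log2 fold changes, from 0.70 to 1.60, and 0 passed. The lowest were Psma1 (0.70 ± 0.35), Psma4 (0.75 ± 0.33) and Psmb2 (0.77 ± 0.30), with adjusted p values of 0.157, 0.111 and 0.0795, and the highest Psmb3 (1.21 ± 0.30), Psma7 (1.27 ± 0.40) and Psma5 (1.60 ± 0.40), with 0.0104, 0.0356 and 0.0111 (SE and edgeR adjusted p). Psma5, an alpha-ring subunit, was at 157, 116, 113, 135 and 84.8 CPM in control and at 199, 826, 245, 206 and 356 CPM in ox-LDL libraries, without overlap. Psmb3 was at 115, 96.3, 94.5, 104 and 88.8 CPM and at 143, 437, 169, 170 and 233 CPM, also without overlap. Both passed when 1 ox-LDL library was left out, Psma5 without replicate 1, 2 or 4 (adjusted p = 0.00731, 0.00431 and 0.00975) and Psmb3 without replicate 1 or 2 (adjusted p = 0.00616 and 0.00334). Psma1 was at 236, 185, 164, 205 and 153 CPM in control and 201, 661, 236, 185 and 252 CPM in ox-LDL libraries. Its log2 fold change was 0.17 without ox-LDL replicate 2 (adjusted p = 0.46), and 0.67 with the length trend removed, where it passed (adjusted p = 0.0043) and the groups did not overlap. Copies without introns, at least 90% identical, exist for Psma4, Psma5, Psmb1 and Psmb3, whose levels are uncertain for that reason.

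Ox-LDL replicate 2 was the highest ox-LDL library in all 14 constitutive 20S genes and in 26 of the 38 genes tested. The 26 had a median length of 893 bases, and the 12 that were highest in another library one of 1634 bases, where all genes tested had a median of 2472 bases. The median CPM of the 14 core genes was 142 to 196 in control libraries and 188, 780, 243, 202 and 355 in ox-LDL libraries, which overlap. With the length trend removed it was 145 to 170 in control and 235, 363, 304, 263 and 434 in ox-LDL libraries, which do not. On that scale 13 of the 14 core genes passed (13.0% of all genes), and every one of the 14 had groups that did not overlap (14.4% of all genes). Their median log2 fold change was 1.09, against 1.14 before. Removing the trend also removes any true difference between the groups that follows gene length.

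**Figure D4:**
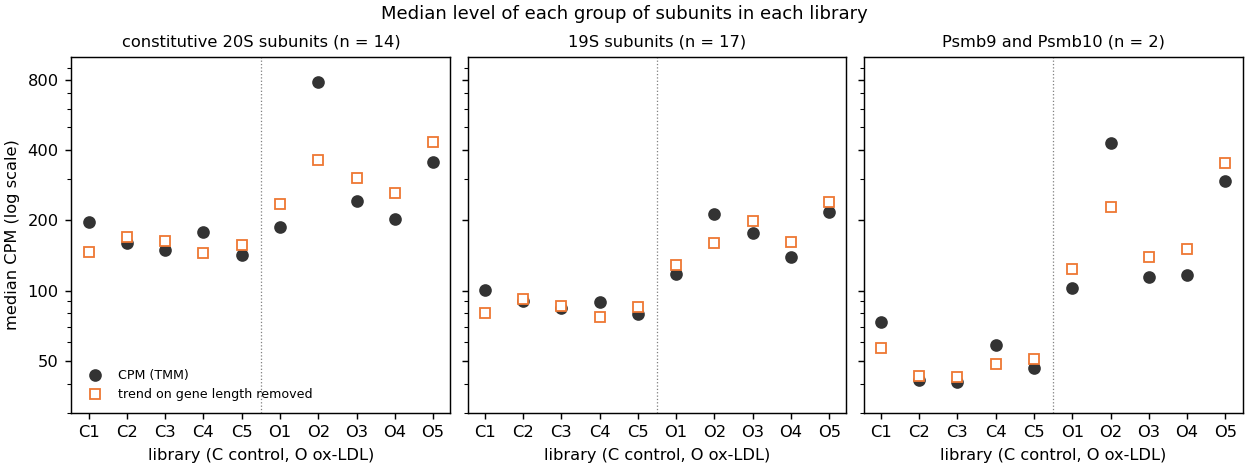
Median CPM (log axis) of the 14 constitutive 20S genes, the 17 genes of the 19S cap, and Psmb9 with Psmb10 in each library, as scaled by TMM (filled circles) and with each library's trend on gene length removed (open squares). For the 20S genes ox-LDL replicate 1 lies among the controls before removal, and all 5 ox-LDL libraries lie above the controls after it; replicate 2 drops from 780 to 363.

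Of the 17 genes of the 19S cap, 7 passed (9.40% of all genes), and in 11 the groups did not overlap (11.6% of all genes). The 7 were the ATPase genes Psmc2 and Psmc4 and the non-ATPase genes Psmd1, Psmd4, Psmd7, Psmd11 and Psmd14. The median log2 fold change was 0.80, below that of the core. With the length trend removed 10 passed (13.0% of all genes), and 8 when ox-LDL replicate 2 was left out (13.5% of all genes). The median log2 fold change of the cap was then 0.88 and 0.69, and that of the 14 core genes, 1.14 before, was 1.09 and 0.60.

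Psmd11, a scaffold subunit of the lid of the cap, stood apart within it. It lies at chr11:80242117-80286750 in mm9 and was measured at 58.1, 67.9, 72.7, 62.3 and 65.1 CPM in control and at 164, 249, 324, 290 and 322 CPM in ox-LDL libraries. All ox-LDL libraries lay above all control libraries, and replicate 1 was the lowest of them. The log2 fold change was 2.05 ± 0.22 (SE), 4.14-fold, with an adjusted p of 5.87e-05, and Psmd11 passed in all 27 alternative fits, with log2 fold changes of 1.83 to 2.19. The next highest were Psmd1 (1.09 ± 0.19) and Psmd14 (1.08 ± 0.21), with adjusted p values of 0.00129 and 0.00267. The kappaB consensus was matched in the promoters of Psma6, Psma7, Psmd12, Psmd13 and Psme4, none of which passed in the main fit, and in that of Psmd11. In Psmd11 the match began 109 bases before the start. The 250 bases before the start (GRCm38.p6, chr11:80428365-80428614, plus strand) are shown with that match and a GC box in capitals:
Psmd11: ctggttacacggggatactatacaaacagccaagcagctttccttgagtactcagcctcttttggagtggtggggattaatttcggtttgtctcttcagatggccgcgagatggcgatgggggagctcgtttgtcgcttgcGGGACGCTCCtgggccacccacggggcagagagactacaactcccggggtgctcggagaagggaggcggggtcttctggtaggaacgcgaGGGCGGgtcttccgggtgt

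Psmd1, a large scaffold of the base of the cap, was at 127, 156, 141, 116 and 128 CPM in control and at 242, 248, 319, 264 and 348 CPM in ox-LDL libraries. Psmd14, the deubiquitinase that removes ubiquitin chains at the cap, was at 87.6, 90.6, 83.9, 75.4 and 68.3 CPM and at 118, 227, 177, 139 and 198 CPM. The groups of neither gene overlapped, and ox-LDL replicate 2 lay within the range of the other ox-LDL libraries for Psmd1. Psmd14 lost its call without control replicate 4 (adjusted p = 0.0110) and with the replicate number as a block (edgeR adjusted p = 0.0123). Psmd1 lost its call with scaling by library size alone (adjusted p = 0.0223) and in the 3 limma fits on FPKM (0.0218, 0.0230 and 0.0566).

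The lowest fold changes of the cap were those of Psmd6 (0.15 ± 0.26), Psmc3 (0.37 ± 0.25) and Psmc1 (0.49 ± 0.19; SE), with adjusted p values of 0.717, 0.302 and 0.0696. Psmd6, a lid subunit, was at 101, 84.0, 76.4, 88.9 and 71.0 CPM in control and at 68.3, 163, 91.7, 66.5 and 76.6 CPM in ox-LDL libraries. Replicate 2 alone lay above the control range, 2 ox-LDL libraries lay below it, and without replicate 2 the log2 fold change was -0.19 (adjusted p = 0.349). The ATPase gene Psmc1 was at 141, 146, 147, 140 and 121 CPM and at 154, 212, 191, 167 and 253 CPM, without overlap. With the length trend removed its groups overlapped, at 119 to 151 CPM in control and 150 to 280 CPM in ox-LDL libraries. The ATPase gene Psmc3 was at 188, 156, 142, 172 and 140 CPM and at 141, 340, 179, 151 and 221 CPM, with overlap. Psmc1 and Psmd2 also have such intronless copies.

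Compared per gene length, the core was more abundant in RNA than the cap. The median FPKM of the 14 constitutive core genes was 174 to 209 in control and 255 to 459 in ox-LDL libraries, and that of the 17 cap genes 52.3 to 74.4 and 81.9 to 117. Psmd8, a lid subunit, had the highest median FPKM over all libraries of the 39 genes (691), and Psme4 the lowest of those tested (9.61). In ox-LDL libraries alone Psme2 had a median of 961 FPKM and Psmd8 one of 807. Psmb6 was at 390 to 437 FPKM in control libraries, above Psmb7 (182 to 213) and Psmb5 (169 to 200), which overlapped. Below these lay Psmb10 at 67.3 to 91.6 and Psmb9 at 20.5 to 38.8 FPKM. In ox-LDL libraries Psme2 reached 748 to 2227 FPKM, against 230 to 281 in control.

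**Figure D5:**
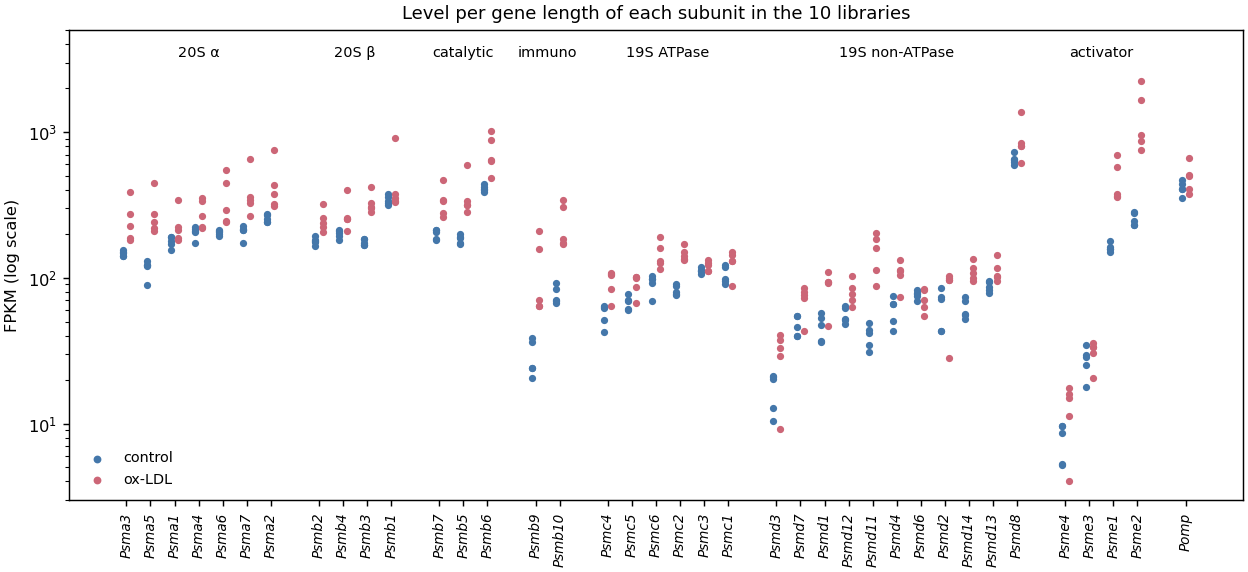
FPKM (log axis) of each of the 38 genes in the 5 control and 5 ox-LDL libraries, grouped by role and ordered by the median over libraries, 1 point per library. Core genes lie mostly above cap genes, Psmd8 is the highest of the cap and Psme4 the lowest gene, and Psme1 and Psme2 lie among the core genes in control libraries and at or above most of them in ox-LDL libraries.

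Pomp, the maturation protein that guides the assembly of the core, did not pass. It was at 315, 231, 209, 255 and 187 CPM in control and at 204, 685, 289, 209 and 361 CPM in ox-LDL libraries, which overlap, with a log2 fold change of 0.55 ± 0.34 (SE; adjusted p = 0.255 with edgeR). It was 0.11 without ox-LDL replicate 2. The chaperones that build the core rings, Psmg1, Psmg2, Psmg3 and Psmg4, did not pass either, with log2 fold changes of -0.08, 0.17, 0.18 and 0.42. Without ox-LDL replicate 2 these were -0.39, -0.49, -0.36 and -0.58 (adjusted p = 0.0994, 0.0434, 0.158 and 0.0344), so 3 of the 4 changed sign. Of the chaperones of the cap, Psmd5 (0.77, adjusted p = 0.00925) and Psmd10 (1.48, adjusted p = 0.00155) rose, Psmd9 had a log2 fold change of 0.25 (adjusted p = 0.609), and Paaf1 was not analysed here. Psmd10 was at 29.7 to 39.1 CPM in control and 49.6 to 131 CPM in ox-LDL libraries.

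Genes that work beside the proteasome moved less uniformly. The ubiquitin receptor gene Adrm1, a cap subunit outside the 39, rose (log2 fold change 1.01, adjusted p = 0.00135), and the small cap subunit gene Sem1 had a value of 0.12 (adjusted p = 0.899), which was -0.90 without ox-LDL replicate 2 (adjusted p = 0.0163). The testis core gene Psma8 was near 2 CPM (1.25 to 3.48 over all libraries; log2 fold change -0.52, adjusted p = 0.297), and the thymus gene Psmb11 had too few counts to be tested. None of Psmf1 (0.60), Usp14 (0.13), Uchl5 (0.59) and Ecpas (1.12), an inhibitor and 3 accessory proteins, passed, though 3 of the 4 passed with the length trend removed. The ubiquitin genes Ubb and Rps27a had log2 fold changes of 0.61 and 0.14 and did not pass (adjusted p = 0.207 and 0.883); without ox-LDL replicate 2 that of Rps27a was -0.87 (adjusted p = 0.0118). Among 9 genes of ubiquitin activation and delivery, the shuttle gene Rad23b rose (0.93, adjusted p = 0.00494) and 8 did not pass, while 4 of the 9 passed with the length trend removed.

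Of the transcription factors known to drive proteasome genes, Stat3 rose (log2 fold change 1.85, adjusted p = 0.0021). Nfe2l1, which raises constitutive subunits when the proteasome is impaired, was at 1.01 (adjusted p = 0.0201), its protease Ddi2 at -0.40 (adjusted p = 0.136), and Nfe2l2, the antioxidant regulator, at -0.77 (adjusted p = 0.0111). Once the length trend was removed all 3 passed, at 0.90, -0.64 and -0.76 (adjusted p = 0.0029, 0.00368 and 0.00212), and without ox-LDL replicate 2 so did Nfe2l1 (adjusted p = 0.00444) and Nfe2l2 (adjusted p = 0.00337). The interferon factor Irf1, which induces the immunosubunits, rose by 4.70 (adjusted p = 2.14e-05) and the MHC class I activator Nlrc5 by 3.32 (adjusted p = 4.87e-06), as log2 fold changes. Of the genes that carry peptides onward, Tap1 (4.08), Tap2 (2.25), the peptide-loading gene Tapbp (2.63) and the trimming peptidase gene Erap1 (1.35) rose, with adjusted p values of 5.76e-05, 0.000524, 0.00012 and 0.000165. B2m, the light chain of MHC class I, had a log2 fold change of 1.58 (adjusted p = 0.0644). Without ox-LDL replicate 2 it was 0.64 (edgeR adjusted p = 0.14). With the length trend removed it was 1.41 and passed (edgeR adjusted p = 0.00126).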

How the data were processed

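Libraries of 5 control and 5 ox-LDL macrophage samples were grouped by their labels. Per the methods, the authors used HISAT2 2.0.5 for alignment to mm9, then SAMtools 1.4 and StringTie 1.3.3.13, and they deposited estimated counts per gene (13.6% of values not whole). The counting step and its strand setting are not given in the sources used here. The authors also deposited a value per gene that behaves as FPKM: the length it implies was constant (median CV 1.08% over 5337 genes). Rows of 9788 circular RNAs were left out, and 29700 rows were used. Of these, 6318 carried no NCBI gene identifier and 22818 had a symbol.

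Counts were rounded, filtered with filterByExpr, scaled by TMM and tested with edgeR 4.0.16 (quasi-likelihood, robust) in R 4.3.3, with Benjamini-Hochberg adjustment over all 12654 genes tested and a call at adjusted p below 0.01. Each standard error was the log2 fold change divided by the root of its F value. FPKM ratios were compared by exact permutation (SciPy 1.17.1) and adjusted over 2 ratios; a planned ratio of Psmb8 to Psmb5 could not be computed. The length trend was a lowess (span 0.3) of each library's log2 CPM, less the gene's mean over libraries, on gene length, and was used as an offset.

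Alternatives were DESeq2 1.42.0, limma 3.58.1 (voom, and log2(FPKM + 1) or log2(FPKM + 0.1)), other scalings, filters and thresholds, the replicate number as a block, the length trend and each library left out; 2 combinations were added after the data were seen. Genes named were the catalytic, activator and maturation genes, the 3 highest and 3 lowest fold changes of the other 20S and of the 19S genes, and genes of 10 short lists, some of which are not reported here. Members and lists were chosen with earlier results of these data known. Near-identical copies were sought with minimap2 2.31 in the mm9 genome (at least 70% covered and 90% identical); 10 genes had one, and the exons of 11 overlapped another annotated gene. Some of the fits were run on simulated counts with a capped spread between replicates. Length trends there were absent or set by hand, and the outcome is not reported here. Coordinates are GENCODE annotations of mm9, and promoter sequences are RefSeq GRCm38.p6.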

Additional observations from a re-analysis of the deposited data

Results flagged for a closer look

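In 7 of 48 groups of 5 libraries, the highest or lowest library stood apart from the other 4 by more than Dixon's 95% critical value of 0.71 for the gap as a share of the range; chance would give about 2.4. In 6 of the 7 the library was ox-LDL replicate 2. It was the highest for Psmb5 (752 CPM, next 297), Psma1 (661 CPM, next 252), Psma7 (916 CPM, next 354), Psma5 (826 CPM, next 356) and Psmd6 (163 CPM, next 91.7), and the lowest for Psme4 (41.6 CPM, next 84.0). Psme4 is the longest of the 38 genes tested, and the Spearman correlation of this library's level with gene length was -0.54; its part in these values was not tested. In the control group replicate 5 was the lowest for Psmc1 (121 CPM, next 140).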

How the results depend on the processing

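The count of 11 proteasome genes higher was 19 with DESeq2 (1765 of all genes, 13.9%), 28 with the length trend removed, 31 with it removed and ox-LDL replicate 2 left out (an alternative added after the data were seen) and 24 at an adjusted p below 0.05; with each library left out in turn it was 4 to 16. It was 15 without ox-LDL replicate 2 and control replicate 5 together, and 8 to 12 under the other scalings, filters and tools; 0 were lower in every alternative run. Of all genes, 1189 were higher: 704 with library size alone, 555, 543 and 472 with limma on log2(FPKM + 1), on log2(FPKM + 0.1) and without a filter, 1843 without ox-LDL replicate 2 and control replicate 5, 1858 with the length trend removed and ox-LDL replicate 2 left out, 2045 at an adjusted p below 0.05, and 826 to 1755 with each library left out. Of all genes, 677 were lower: 1244 with DESeq2, 1230 with the length trend removed, 1232 with it and the replicate block, 1483 without ox-LDL replicate 2 and control replicate 5, 1381 with the length trend removed and ox-LDL replicate 2 left out, 1320 at an adjusted p below 0.05, and 436 to 1502 with each library left out. The cause was not tested.

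The correlations between same-numbered samples were 0.03, -0.24, 0.42, -0.26 and 0.40. Samples with different numbers reached values as high. Control replicate 3 correlated with ox-LDL replicate 4 (0.46), and control replicates 1 and 4 with ox-LDL replicate 2 (0.44 and 0.46). Control replicates 1 and 4 and ox-LDL replicate 2 were the libraries in which short genes stood above their mean. The main fit did not take the replicate numbers as pairs, and these values do not settle whether they are. With the replicate block 3 of 38 proteasome genes were higher, a share near the 6.99% of all genes. Psmb9, Psmb10, Psme1 and Psme2 were not among them. The count was 23 with the length trend removed as well (12.3% of all genes).

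The log2 fold change of Psmd6 (0.15) was -0.11 with library size alone, -0.0067 with upper-quartile scaling, -0.13 in all 3 limma fits on FPKM, -0.19 to 0.25 with each library left out (lowest without ox-LDL replicate 2) and -0.23 without it and control replicate 5. The other 21 named genes tested kept their sign in all 27 alternatives. The median log2 fold change of the proteasome genes was 0.60 to 1.06 over the alternatives. Scaling by library size alone moved the median of all genes from 0.097 to -0.09 and that of the proteasome genes to 0.74. Both FPKM ratios kept their direction in all 12 alternatives (adjusted p 0.00794 to 0.0159; 0.0159 is the smallest possible with a library left out).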
